A study of Mus musculus with 4 samples.

Results

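The mouse genes described here build and supply the primary cilium. They were a list of 55 symbols, matched to gene identifiers through the GENCODE M21 annotation, and 54 of them were kept because they reached 1 FPKM in at least 1 of 4 libraries (FPKM, the fragments per 1000000 assigned to genes, divided by exonic length in kilobases). Across all genes, 12817 of 55573 in the files met the same filter. By role the list held 12 genes of intraflagellar transport complex B (IFT-B), 6 of complex A (IFT-A), 4 of the kinesin-2 motors, 2 of the dynein-2 motor, 7 of the BBSome, 5 for small GTPases and a lipid phosphatase, 14 of the transition zone and 5 of the basal body. Kif17, which encodes an accessory kinesin-2 motor, was the gene left out, at 0.20, 0.18, 0.13 and 0.14 FPKM in wild type, knockout, siNeg and siDyrk2. The kept gene nearest to the filter was Bbs1, whose highest library reached 1.19 FPKM.

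The RNA came from primary mouse embryonic fibroblasts (MEFs), cultured straight from embryos, and each culture had been given 100 nM SAG, an agonist of the Hedgehog transducer Smoothened, for 24 h. The 4 groups were wild type cells, Dyrk2 knockout cells (Dyrk2-KO), wild type cells given a control siRNA, siNegative (siNeg), and wild type cells given siDyrk2, an siRNA against Dyrk2, which encodes a protein kinase. Every group had 1 library, so no difference below has a replicate check and no test between groups was made. The labels give no embryo, litter, clone or transfection details, and SAG was present in all 4 groups, so no value shows the response to SAG.

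The primary cilium is a microtubule-based projection of the cell surface, and vertebrate Hedgehog signalling runs through it. IFT trains carry cargo along it: kinesin-2 moves trains with IFT-B towards the tip, and dynein-2 moves them back with IFT-A. The BBSome carries membrane proteins out of the cilium, the transition zone at its base acts as a gate, and the basal body is the modified centriole from which it grows.

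Promoters of many cilium genes carry the X-box, the site bound by RFX transcription factors, so the stretches of promoter that hold it are shown first. Promoter sequence, from 250 bases before to 50 after the start site, was found for 50 of the 55 genes in RefSeq's annotation of GRCm38.p6. The letters GTTGCC, one arm of the X-box, were present on either strand in 26 of these 50 promoters (52%), against 14.1% of the 27025 genes with such a promoter. The longer spelling GTTGCCNNNGNAAC, which contains the first, was present in 5 of 50 (10%), against 0.503% of all genes. These are the 5 longer matches and then the 4 other genes whose ratio of (FPKM + 1) between siDyrk2 and siNeg was at least 1.3-fold (on that scale Mks1 belongs to both sets), each as 30 bases on the gene's own strand with the matched letters in capitals.
Ahi1, chr10:20952560-20952589, plus strand: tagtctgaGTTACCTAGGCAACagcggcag
B9d2, chr7:25680788-25680817, plus strand: aacctgctGTTGCCCCAGCAACagtcgggg
Bbs7, chr3:36613489-36613518, minus strand: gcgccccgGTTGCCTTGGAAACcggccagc
Mks1, chr11:87853183-87853212, plus strand: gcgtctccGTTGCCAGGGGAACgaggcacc
Tctn1, chr5:122264411-122264440, minus strand: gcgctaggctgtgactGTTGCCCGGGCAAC
B9d1, chr11:61505152-61505181, plus strand: cgagagcctcctGGCAACagcgcgcggcct
Ift27, chr15:78174073-78174102, minus strand: gggttgatgatgGTTGCCaggagcctgttt
Ift88, chr14:57424080-57424109, plus strand: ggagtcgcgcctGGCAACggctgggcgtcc
Kif3a, chr11:53567259-53567288, plus strand: caccccgcaggcGTTGCCccagtctagcgt

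In Ahi1, B9d1 and Ift88 the match reads on the opposite strand, so the printed capitals are its reverse complement. Counted from 0 at the start site, with negative positions before it, the first matched base lay at -121 in Bbs7, -98 in Kif3a, -24 in Mks1, -9 in Ift27, 16 in B9d2, 20 in B9d1, 21 in Ift88 and Ahi1, and 36 in Tctn1. A match is a description of letters, not of a bound site. In all, 8 spellings of the motif were searched, and in each the share of cilium genes was above the share of all genes. Several spellings contain others and match the same genes, so these are not separate results. GTTGCCATGG was found in 1 cilium gene, Tctn2 (2% against 0.633%). The 27025 genes were not limited to those that passed the filter.

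Median ratios lay close together with and without these letters. The 25 kept genes with GTTGCC had median log2 ratios of -0.02 (knockout against wild type), 0.04 (siDyrk2 against siNeg) and -0.09 (siNeg against wild type), and the 24 kept genes with a promoter sequence but without these letters had 0.02, 0.04 and -0.08. Their median levels were 3.56 and 6.13 FPKM. Among the RFX genes, Rfx1 (3.91, 3.68, 3.68 and 3.68 FPKM in wild type, knockout, siNeg and siDyrk2), Rfx5 (5.82, 5.44, 4.83 and 4.97 FPKM) and Rfx7 (4.36, 3.81, 4.7 and 4.6 FPKM) passed the filter, while Rfx2 and Rfx3 stayed under 0.5 FPKM in all 4 libraries.

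As checks of the labels, Dyrk2 stood at 6.59, 0.57, 7.06 and 0.81 FPKM in wild type, knockout, siNeg and siDyrk2. Gli1, a transcriptional target of Hedgehog signalling, stood at 28.81, 0.24, 30.17 and 2.25 FPKM in the same order. Estimated depth lay between 19.98 and 23.93 M fragments (M, 1000000), and 97 to 3570 fragments stood behind each kept cilium gene in each library. The 9 fibroblast markers summed to between 6541 and 8594 FPKM, and all passed the filter. Of 15 markers of cells with motile cilia 13 had a matching identifier, and only Tekt2 passed the filter, at up to 2.17 FPKM, with 5 or 6 of the 13 at 0 in each library. The 11 macrophage and leukocyte markers summed to 253.8, 516.7, 293.9 and 363.6 FPKM in wild type, knockout, siNeg and siDyrk2, and 19 kept genes of the G2 and M phases to 175.7, 67.89, 251.2 and 233.9 FPKM.

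The cilium genes were expressed at low to moderate levels in every library. Summed over the 54 genes, the level was 372.1 FPKM in wild-type cells, 358.6 in the knockout, 351.3 with siNeg and 365 with siDyrk2. The mean over the 4 libraries ran from 1.065 FPKM (Bbs1) to 55.06 FPKM (Rab34), with a median of 3.956 FPKM, below the median of 7.353 FPKM of all protein-coding genes that passed the filter. Levels of different genes are compared here on the FPKM scale, which divides by exonic length. For Ift122, Bbs7, Arl3, Rpgrip1l and Tctn2 the authors' exonic length was over 2 times that of the longest annotated transcript. This lowers their FPKM against the other genes but leaves their plain FPKM ratios between libraries as they are. Ratios of (FPKM + 1), used below for counting, are drawn towards 1 as FPKM falls.

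**Figure D1:**
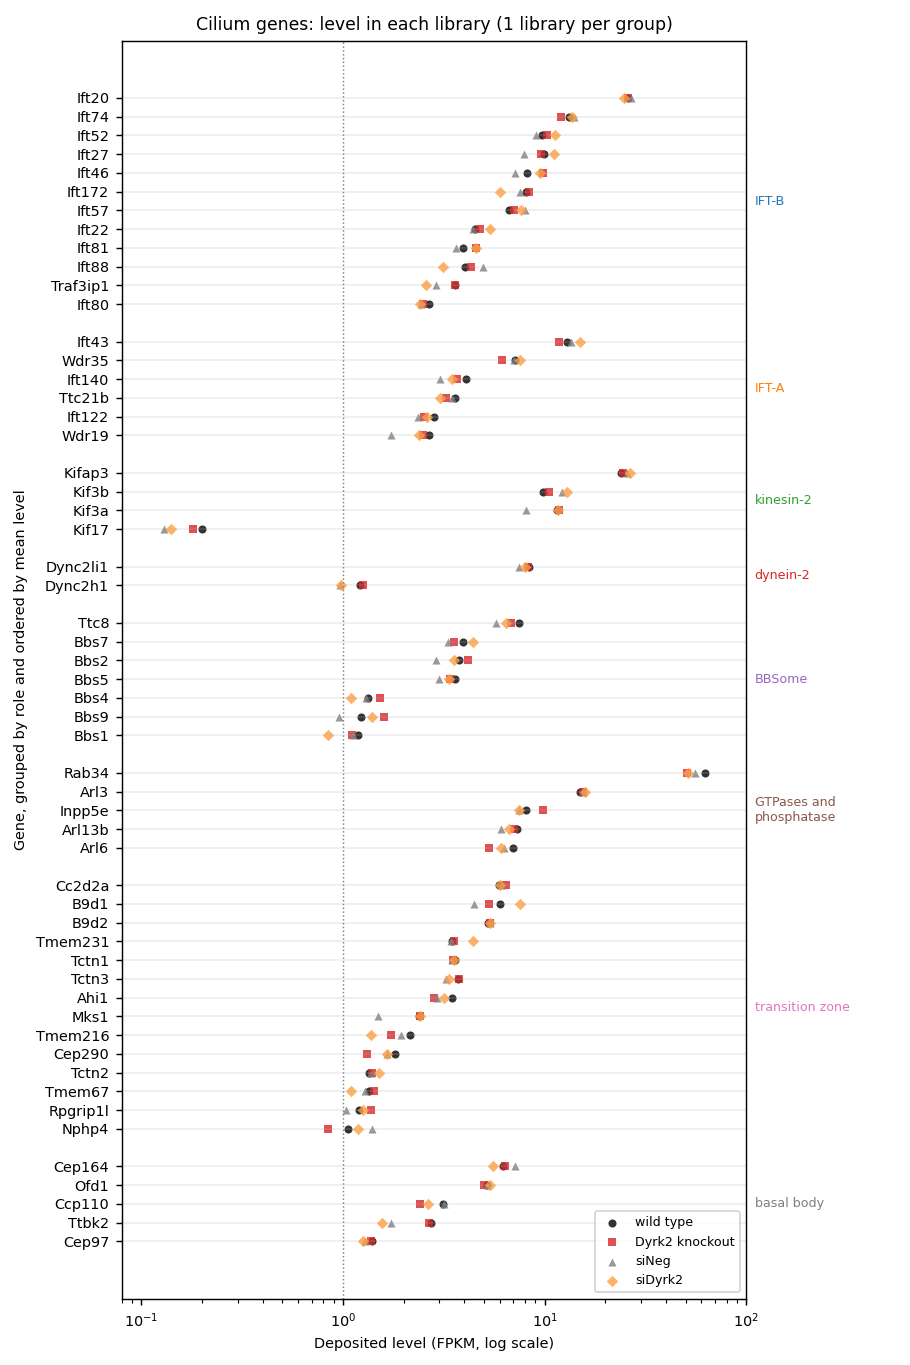
Deposited level of each of the 55 cilium genes in the 4 libraries (horizontal log axis, FPKM), grouped by role and ordered by mean level, with 1 point per library and a dotted line at 1 FPKM. The points of a gene lie close together for most genes, Kif17 lies far below the line, and the siNeg triangle stands to the left of the other points for Kif3a, Mks1 and Wdr19.

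For most of these genes the 4 libraries differed little. The highest library was under 1.3 times the lowest in 29 of 54 genes and under 1.5 times in 46. The median of this ratio was 1.295, the smallest was 1.029 and the largest was 1.744, in Ttbk2. It was not computed over all genes, so these counts have no baseline and do not set cilium genes apart. Tctn1, which encodes a tectonic protein of the transition zone, had 3.59, 3.53, 3.49 and 3.54 FPKM in wild type, knockout, siNeg and siDyrk2. Of its exons, 18.98% overlap Hvcn1 on the opposite strand, which had 7.91, 11.89, 5.27 and 7.58 FPKM. Whether the counting used strand is not given in the sources used here. B9d2, from the same gate complex as Tctn1, had 5.23, 5.38, 5.34 and 5.35 FPKM. Arl3, the GTPase that releases lipid-modified cargo inside the cilium, had 15.06, 15.46, 15.54 and 15.94 FPKM.

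The comparison of knockout with wild type asked whether loss of Dyrk2 went with other levels of cilium transcripts, and on the scale used for counting none of the 54 genes differed by 1.3-fold. Differences are counted as log2 ratios of (FPKM + 1), a scale that understates genes with low values. On it, 0 genes were 2-fold different in either direction (1.78% of all 12817 genes were), 0 were at least 1.3-fold higher (5.99% of all genes) and 0 at least 1.3-fold lower (8.08% of all genes). The log2 ratios ran from -0.33 to 0.26, with 27 genes higher and 27 lower (55.6% of all genes were lower). Their median was -0.004, against -0.025 over all genes, and it changed sign to 0.018 when ratios were centred on protein-coding genes. The median size of the log2 ratio, without its sign, was 0.073 for the cilium genes and 0.118 for protein-coding genes. Markers of leukocytes were higher in this knockout library, in all 10 kept of 11, and all 19 kept genes of the G2 and M phases were lower. The part of either in the cilium gene ratios was not tested, and in bulk RNA fewer cells of a type and less RNA per cell cannot be told apart.

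Fragment counts allow finer differences between these libraries to be seen, as 95% exact binomial intervals that cover counting error only. The interval of the FPKM ratio lay wholly above 1 for 4 cilium genes (19.1% of all genes) and wholly below 1 for 8 (26.2% of all genes). As a share of the 54 genes these were 7.407% and 14.81%, both below the share of all genes. Intervals are wider for genes with fewer fragments, and the shares, here and below, were not matched for level.

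On the scale of (FPKM + 1) the 4 largest differences in the knockout were lower values, in Arl6, Rab34, Ccp110 and Cep290. Arl6 (ENSMUSG00000022722), the GTPase that recruits the BBSome to membranes, had 6.93 FPKM in wild-type cells, 5.30 in the knockout, 6.27 with siNeg and 6.06 with siDyrk2. The knockout value was the lowest, 1.31-fold below wild type (1.11 to 1.55). Rab34 (ENSMUSG00000002059), a GTPase that acts in the early, intracellular steps of cilium formation, had 62.56, 50.70, 55.57 and 51.42 FPKM, so that the knockout was 1.23-fold below wild type (1.17 to 1.298). It was also lower with siDyrk2 than with siNeg, by 1.08-fold (1.02 to 1.14), with siNeg itself between wild type and both low-Dyrk2 libraries, as the knockout and siDyrk2 libraries are called below. Ccp110 (ENSMUSG00000033904) encodes the centriole cap that has to be removed before a cilium can grow. It had 3.15, 2.40, 3.16 and 2.63 FPKM, with both controls nearly level and both low-Dyrk2 libraries below them, by 1.31-fold in the knockout (1.16 to 1.49) and 1.202-fold with siDyrk2 (1.06 to 1.36).

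Cep290 (ENSMUSG00000019971), a transition zone scaffold that links microtubules to the membrane, had 1.81 FPKM in wild-type cells, 1.31 in the knockout and 1.65 with both siNeg and siDyrk2. The knockout was lower by 1.38-fold on the FPKM ratio (1.2 to 1.59), which the added 1 FPKM reduces to a log2 ratio of -0.28. On the plain FPKM ratio 3 genes were at least 1.3-fold lower, Cep290, Ccp110 and Arl6 (11.8% of all genes were), and 1 was at least 1.3-fold higher, Bbs9 (9.03% of all genes).

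On the scale of (FPKM + 1) the largest higher values belonged to Inpp5e and Ift46. Inpp5e (ENSMUSG00000026925), the phosphatase that sets the phosphoinositide content of the ciliary membrane, had 8.04 FPKM in wild-type cells, 9.83 in the knockout, 7.44 with siNeg and 7.43 with siDyrk2. The knockout stood above the 3 other libraries, 1.22-fold above wild type (1.11 to 1.34), while siNeg and siDyrk2 were level. Ift46 (ENSMUSG00000002031), an IFT-B subunit, had 8.14, 9.85, 7.13 and 9.49 FPKM. Both low-Dyrk2 libraries lay above both controls, by 1.21-fold in the knockout (1.12 to 1.31) and 1.33-fold with siDyrk2 (1.22 to 1.45).

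The comparison of siDyrk2 with siNeg held more and larger differences, up to 1.7-fold. No gene was 2-fold different (1.54% of all genes were). At least 1.3-fold higher were 4 genes, B9d1, Kif3a, Mks1 and Ift27, which is 7.407% of 54 against 9.96% of all genes, and 1 was at least 1.3-fold lower, Ift88 (6.75% of all genes). On the plain FPKM ratio 8 genes were at least 1.3-fold higher, with Bbs7, Bbs9, Ift46 and Wdr19 besides (14.6% of all genes), and 3 lower, with Bbs1 and Tmem216 besides (9.96% of all genes). The log2 ratios ran from -0.53 to 0.65, and their median was 0.041 against 0.024 over all genes. Of the 54 genes 32 were higher, 59.26% against 54.3% of all genes, and 21 lower. The median size was 0.131, close to the 0.150 of protein-coding genes. The counting interval lay above 1 for 15 genes, 27.78% of the members against 28.3% of all genes, and below 1 for 8, 14.81% against 23.1%. Between these libraries the 19 kept G2 and M genes had a median log2 ratio of -0.102 and the 10 kept leukocyte markers 0.226, and their part in the cilium gene ratios was not tested.

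**Figure D2:**
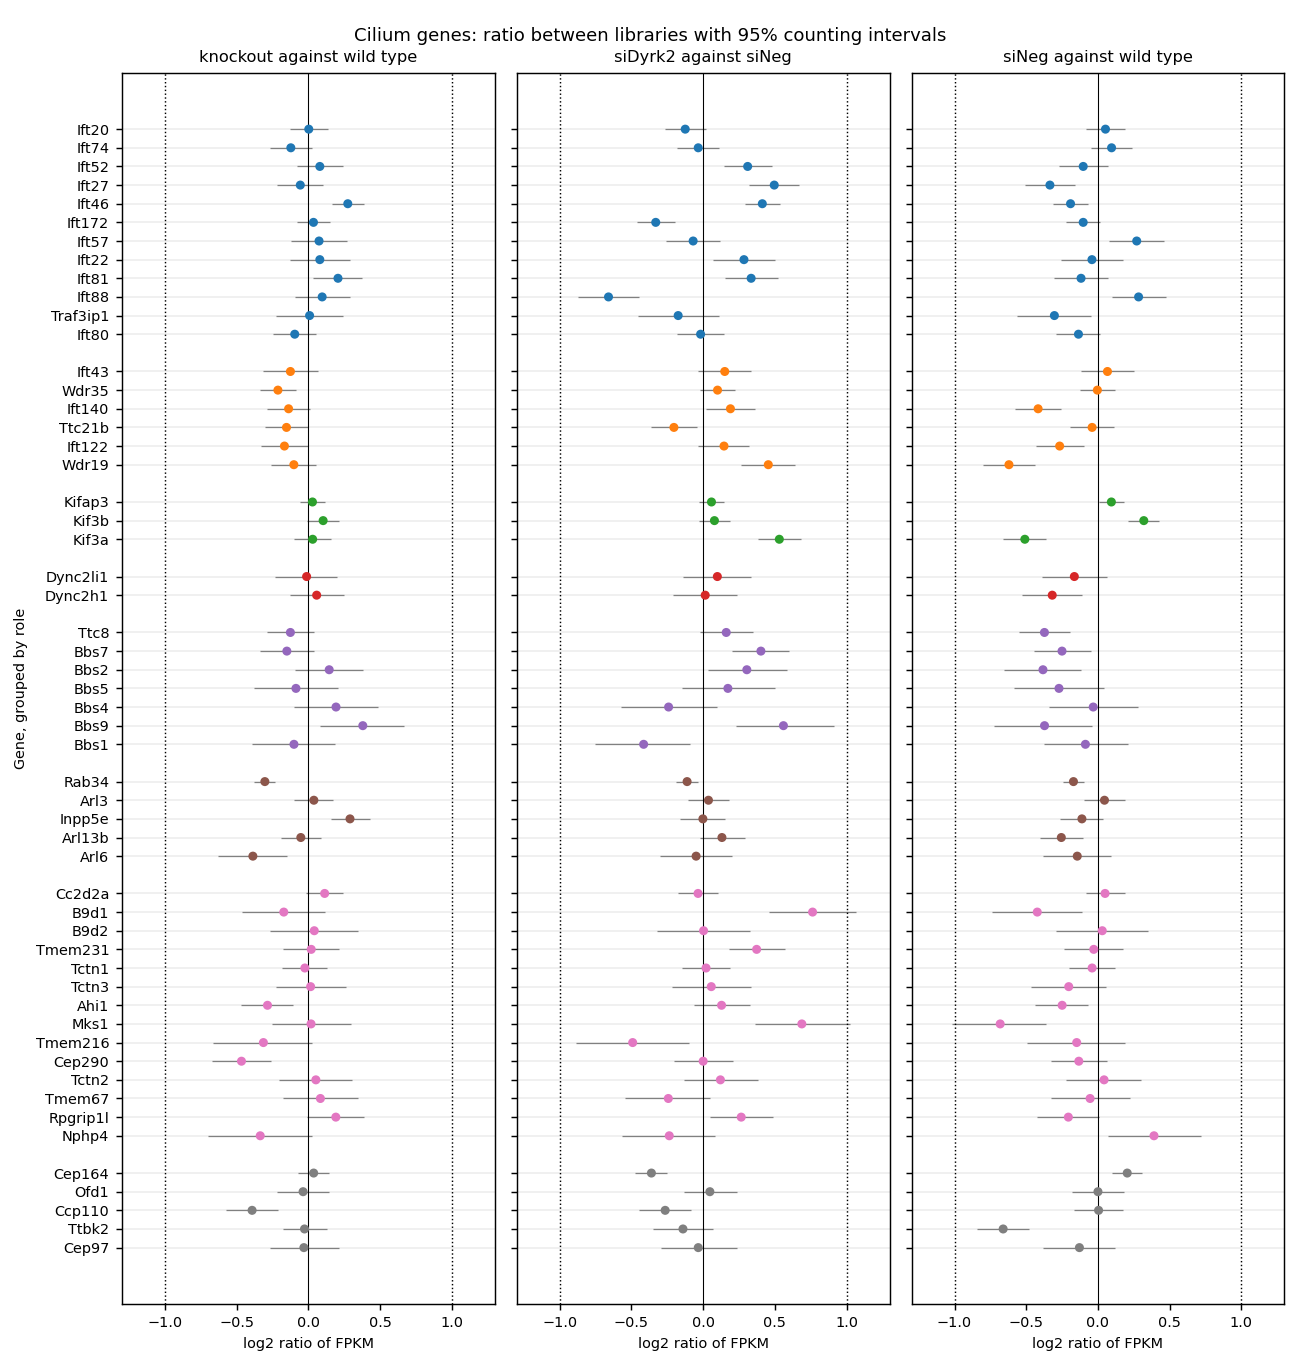
Log2 ratio of deposited FPKM (horizontal axes, no added 1 FPKM) of the 54 kept cilium genes, coloured by role, in the 3 comparisons, with bars for the 95% counting interval and dotted lines at 2-fold. No point reaches a dotted line, and Kif3a, Mks1, B9d1 and Wdr19 lie to the right in the middle panel and to the left in the right-hand panel.

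For Kif3a and Mks1 the siRNA difference came with a low value in the siNeg library. Kif3a (ENSMUSG00000018395, GRCm38 chromosome 11, 53567379 to 53601967), the motor subunit that heterotrimeric kinesin-2 needs for outward transport, had 11.49 FPKM in wild-type cells, 11.73 in the knockout, 8.07 with siNeg and 11.66 with siDyrk2. The 3 libraries other than siNeg lay between 11.49 and 11.73 FPKM, and siDyrk2 was 1.44-fold above siNeg (1.301 to 1.61). Mks1 (ENSMUSG00000034121, chromosome 11, 87853215 to 87863803), a B9-domain protein of the transition zone, had 2.39, 2.42, 1.49 and 2.40 FPKM. Here too siNeg alone was low, with siDyrk2 1.61-fold above it (1.28 to 2.04). Against wild type instead of siNeg, the log2 ratio of siDyrk2 was 0.02 for Kif3a and 0.00 for Mks1.

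B9d1 and Ift27 had a low siNeg value together with a high siDyrk2 value. B9d1 (ENSMUSG00000001039, chromosome 11, 61505144 to 61512931) encodes the partner of Mks1 and B9d2 in the gate, and it had 5.98 FPKM in wild-type cells, 5.31 in the knockout, 4.46 with siNeg and 7.57 with siDyrk2. The ratio of siDyrk2 to siNeg was 1.70 (1.38 to 2.10), the largest among the 54 genes, and the log2 ratio of siDyrk2 to wild type was 0.30. The knockout lay below wild type, the other way, with a ratio of 0.89 whose counting interval included 1 (0.73 to 1.08). Ift27 (ENSMUSG00000016637, chromosome 15, 78159463 to 78174107), a small GTPase of IFT-B that works in BBSome-dependent exit from the cilium, had 9.94, 9.56, 7.88 and 11.11 FPKM, a ratio of siDyrk2 to siNeg of 1.41 (1.249 to 1.59) and a log2 ratio of siDyrk2 to wild type of 0.15.

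Ift88 was the gene with the largest lower value. Ift88 (ENSMUSG00000040040, chromosome 14, 57424062 to 57517936), the core IFT-B subunit whose loss blocks cilium formation, had 4.05 FPKM in wild-type cells, 4.33 in the knockout, 4.93 with siNeg and 3.12 with siDyrk2. siDyrk2 was the lowest and siNeg the highest library, a 1.58-fold difference (1.37 to 1.83), and the log2 ratio of siDyrk2 to wild type was -0.29. In the knockout the gene was not lower than in wild type. Ift172, also of IFT-B, had 8.13, 8.33, 7.57 and 6.02 FPKM and was lowest with siDyrk2 as well. Tmem216, a membrane protein of the transition zone, had 2.15, 1.73, 1.94 and 1.38 FPKM and was lower than its control in both comparisons. The counting interval of its ratio of knockout to wild type included 1 (0.63 to 1.02).

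The comparison of both controls, siNeg with wild type, had no lowered Dyrk2. The median log2 size of its ratios was 0.117, next to 0.131 for siDyrk2 with siNeg. For protein-coding genes these sizes were 0.127 and 0.15, so the closeness is not particular to cilium genes. Of the 54 genes 39 were lower with siNeg, 72.22% against 51% of all genes, and 14 were higher. Their median log2 ratio was -0.093 against -0.006 over all genes, with a range of -0.46 to 0.29. No gene was 2-fold different (0.928% of all genes) and none at least 1.3-fold higher (4.63% of all genes). At least 1.3-fold lower were 4 genes, Kif3a, Mks1, Ttbk2 and Wdr19, or 7.407% against 6.79% of all genes. The counting interval lay below 1 for 18 genes, 33.33% of the members against 23.6% of all genes, and above 1 for 6, 11.11% against 22.9%. This comparison shares the wild type library with the knockout comparison and the siNeg library with the siRNA comparison, so their values stand only side by side.

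siNeg was the lowest of the 4 libraries for 23 of the 54 genes, 42.59% against 27.2% of all genes. The knockout was lowest for 10, 18.52% against 32.5%, siDyrk2 for 14, 25.93% against 23.7%, and wild type for 7, 12.96% against 15.1%. The 19 kept genes of the G2 and M phases were all higher with siNeg than in wild type, with a median log2 ratio of 0.463, and the 10 kept leukocyte markers were too, with 0.399. Their part in the lower cilium gene values was not tested.

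Ttbk2 was low in both transfected libraries, and Wdr19 with siNeg alone. Ttbk2 (ENSMUSG00000090100), the kinase that starts cilium growth at the basal body, had 2.72 FPKM in wild-type cells, 2.67 in the knockout, 1.72 with siNeg and 1.56 with siDyrk2, and siNeg was 1.58-fold below wild type (1.40 to 1.79). Its exons share 3409 bases, 29.89% of its exonic length, with Cdan1 on the same strand, which had 2.99, 2.57, 2.74 and 2.45 FPKM. The sources used here do not say how the authors' counting split fragments between both genes. Wdr19 (ENSMUSG00000037890), an IFT-A subunit, had 2.66, 2.48, 1.73 and 2.37 FPKM, low only with siNeg, which was 1.54-fold below wild type (1.36 to 1.74). Ift140, of the same complex, had 4.06, 3.69, 3.04 and 3.47 FPKM, 1.34-fold lower with siNeg than in wild type (1.19 to 1.495).

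**Figure D3:**
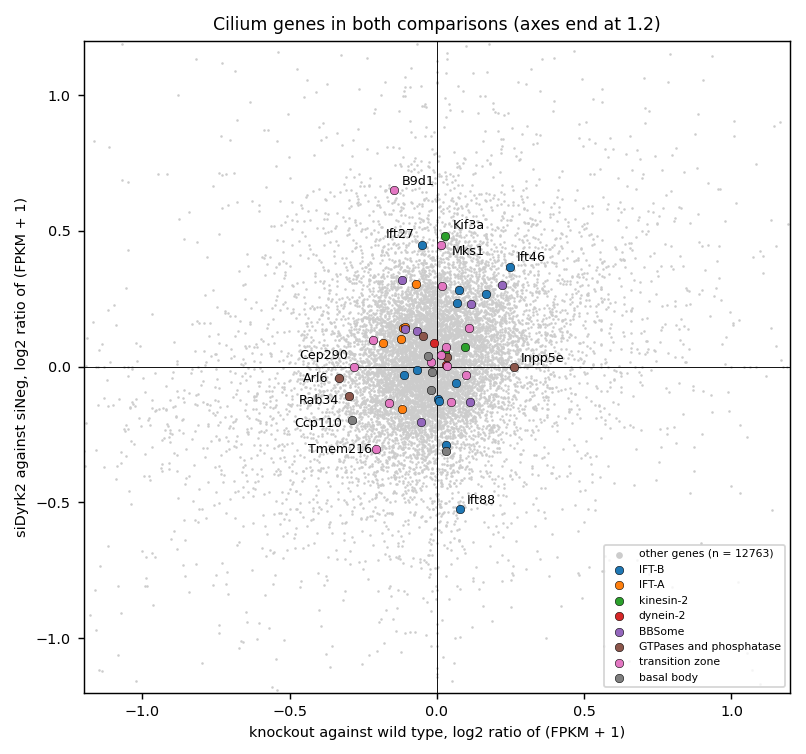
Log2 ratio of (FPKM + 1) of siDyrk2 against siNeg (vertical axis) over that of knockout against wild type (horizontal axis), with 1 point per gene, the 54 cilium genes coloured by role and other kept genes in grey; some grey points lie beyond the axes. The coloured points spread further along the vertical axis (-0.53 to 0.65) than along the horizontal one (-0.33 to 0.26).

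On the scale of (FPKM + 1) no cilium gene was at least 1.3-fold different in the same direction in both low-Dyrk2 comparisons, which share no library (3.58% of all genes were). On the plain FPKM ratio 1 was, Bbs9, which was higher in both (6.61% of all genes were so in one direction or the other). By sign alone, 17 genes were higher in both, 11 lower in both and 25 opposite, with 1 at a ratio of exactly 0. Over all genes 27.63% were higher in both, 28.9% lower in both and 42.15% opposite. Both low-Dyrk2 libraries stood above both controls for 11 genes, 20.37% against 16.3% of all genes. These were B9d2, Bbs9, Ift22, Ift46, Ift52, Ift81, Kif3a, Mks1, Rpgrip1l, Tctn2 and Tmem231. They stood below both controls for 6 genes, Arl6, Bbs1, Ccp110, Rab34, Tmem216 and Ttc21b, 11.11% against 16.6%. Both transfected libraries were below both untransfected ones for 17 genes, 31.48% against 20.9% of all genes, and above them for 7, 12.96% against 24.4%.

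**Figure D4:**
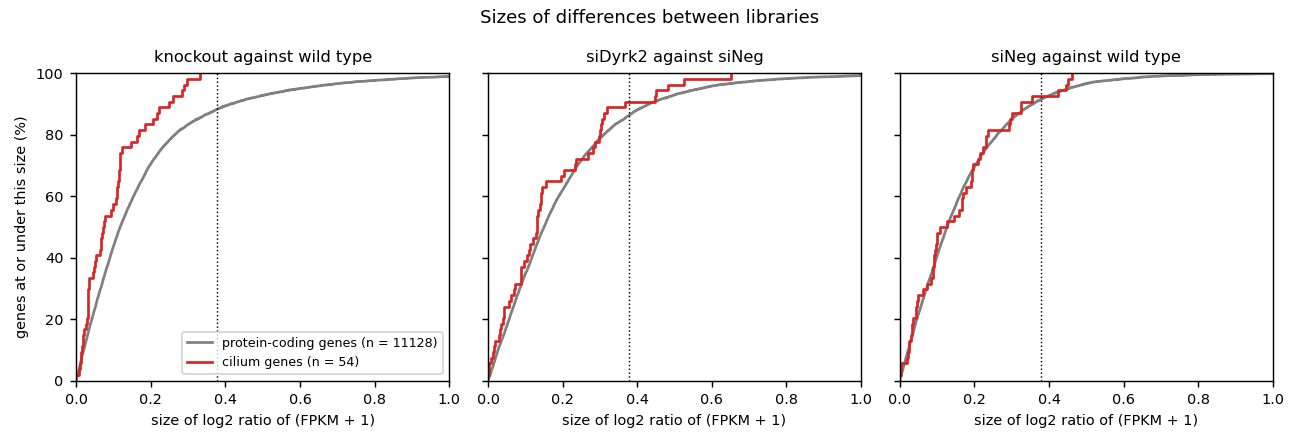
Share of genes (vertical axis, %) whose log2 ratio of (FPKM + 1), without its sign, is at or under the value on the horizontal axis, for the 54 cilium genes in red and all protein-coding genes in grey, with a dotted line at 1.3-fold. In the knockout panel the red curve lies to the left of the grey one (medians 0.073 and 0.118), and in the other panels the curves run close together.

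Within IFT-B, which holds the adaptor and core subunits of outward trains, levels ran from Ift80 (2.67, 2.50, 2.43 and 2.40 FPKM in wild type, knockout, siNeg and siDyrk2) to Ift20 (25.93, 25.99, 26.88 and 24.65 FPKM). Ift20 also works at the Golgi, where ciliary membrane cargo sets out. In the knockout 9 of 12 subunits were higher and 3 lower (55.6% of all genes were lower), with a median log2 ratio of 0.048. With siDyrk2 5 were higher and 7 lower than with siNeg (54.3% of all genes were higher), with a median of -0.022. Ift88 and Ift172 were then low while Ift27, Ift46, Ift52 and Ift81 were high, so subunits of this complex differed in both directions within the siRNA pair.

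The 6 IFT-A genes differed by small amounts. All 6 were lower in the knockout (55.6% of all genes were), with log2 ratios between -0.18 and -0.07 and a median of -0.117. With siDyrk2 5 of 6 were higher than with siNeg (54.3% of all genes were), with a median of 0.122. But 5 of 6 were also lower with siNeg than in wild-type cells (51% of all genes were), with a median of -0.112. Against wild type instead of siNeg the log2 ratio of siDyrk2 was negative for Ift140 (-0.18) and Wdr19 (-0.12) and positive for Ift43 (0.20). The gene that was lower with siDyrk2 than with siNeg was Ttc21b, at 3.59, 3.23, 3.49 and 3.03 FPKM. Ift43 was the highest of the group, at 12.89, 11.82, 13.49 and 14.98 FPKM. Wdr35, a further subunit, had 7.09, 6.12, 7.07 and 7.58 FPKM, lowest in the knockout by 1.16-fold against wild type (1.06 to 1.26).

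The kinesin-2 genes were among the higher ones, and the dynein-2 genes differed widely in level. Kifap3, the adaptor that links kinesin-2 to cargo, had 23.95, 24.43, 25.55 and 26.59 FPKM. Kif3b, the partner motor of Kif3a, had 9.81, 10.54, 12.24 and 12.93 FPKM and was above wild type with siNeg by 1.248-fold (1.16 to 1.35), whereas Kif3a was below it. Dync2h1, the dynein-2 heavy chain, had 1.21, 1.26, 0.97 and 0.98 FPKM, level within the knockout pair and within the siRNA pair but lower in both transfected libraries. Dync2li1, its light intermediate chain, had 8.34, 8.27, 7.44 and 7.97 FPKM.

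The 7 BBSome genes were all lower with siNeg than in wild type (51% of all genes were). Their summed level was 22.54 FPKM in wild-type cells, 22.2 in the knockout, 18.33 with siNeg and 21.11 with siDyrk2. The median log2 ratio was -0.054 in the knockout (3 higher, 4 lower), 0.138 with siDyrk2 against siNeg (5 higher, 2 lower) and -0.196 with siNeg against wild type. Over all genes 55.6% were lower in the knockout and 54.3% higher with siDyrk2. Ttc8 was the highest member, at 7.46, 6.84, 5.76 and 6.44 FPKM, and Bbs1 the lowest, at 1.19, 1.11, 1.12 and 0.84 FPKM. Bbs9 had 1.23, 1.60, 0.95 and 1.40 FPKM, above its control in the knockout by 1.301-fold (1.06 to 1.59) and with siDyrk2 by 1.47-fold (1.17 to 1.88).

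Among the small GTPases, Arl13b, a marker of the ciliary membrane that activates Arl3, had 7.27, 7.01, 6.09 and 6.67 FPKM. The group's median log2 ratio was -0.046 in the knockout and -0.002 with siDyrk2. Its spread came from Rab34 and Arl6 on the lower side and Inpp5e on the higher side. Of the exons of Inpp5e, 20.32% overlap Pmpca on the opposite strand, which had 19.96, 18.95, 25.62 and 25.24 FPKM. The libraries were stranded, but the sources used here do not say whether the counting used strand.

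By the mean over the 4 libraries the transition zone had the lowest median level of the roles, 2.636 FPKM, next to 2.835 FPKM at the basal body. With siDyrk2 the basal body median was the lower, at 2.63 against 2.79 FPKM. Cc2d2a was the highest transition zone gene, at 5.94, 6.43, 6.15 and 6.00 FPKM, and Nphp4 the lowest, at 1.06, 0.84, 1.39 and 1.18 FPKM. In the knockout 8 of the 14 transition zone genes had higher and 6 lower values (median log2 ratio 0.012). With siDyrk2 9 were higher and 4 lower (0.030), and with siNeg against wild type 4 were higher and 10 lower (-0.058). Over all genes 55.6% were lower in the knockout, 54.3% higher with siDyrk2 and 51% lower with siNeg. Ahi1, a transition zone protein whose promoter holds one of the longer X-box matches printed above, had 3.46, 2.84, 2.91 and 3.18 FPKM and was 1.22-fold lower in the knockout (1.08 to 1.38). Tmem231, a membrane protein of the same gate, had 3.49, 3.54, 3.42 and 4.43 FPKM, high only with siDyrk2.

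At the basal body, Cep164, the distal appendage protein that recruits Ttbk2, had 6.2, 6.36, 7.14 and 5.56 FPKM. It was 1.28-fold lower with siDyrk2 than with siNeg (1.19 to 1.39), and siNeg was the highest library. Cep97, which caps centrioles with Ccp110, had 1.40, 1.37, 1.28 and 1.25 FPKM, and Ofd1, of the centriolar satellites, had 5.16, 5.03, 5.16 and 5.33 FPKM. The cap genes thus differed from each other: Ccp110 was lower in both low-Dyrk2 libraries, and Cep97 was nearly level within both pairs.

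Cilium genes outside the list were set beside it. Of 24 further transport gene symbols 23 had a matching identifier and 22 were kept, and 0 were 1.3-fold different in the knockout (median log2 ratio 0.001). With siDyrk2 their median was 0.102, and 2 were at least 1.3-fold higher (9.96% of all genes). These were Unc119 (9.71, 12.2, 8.3 and 13.66 FPKM) and Unc119b (9.67, 9.68, 6.64 and 9.64 FPKM), which carry myristoylated proteins to the cilium, and Unc119b was low in siNeg alone. Of 24 further transition zone and basal body genes 22 were kept, with medians of -0.009 in the knockout and -0.022 with siDyrk2. At least 1.3-fold lower were 2 of them in the knockout, Tmem17 and Tulp3 (8.08% of all genes), and 1 with siDyrk2, Tulp3 (6.75% of all genes), so Tulp3 passed in both comparisons (3.58% of all genes). Tulp3, which brings membrane receptors into the cilium with IFT-A, had 12.42, 9.2, 12.63 and 9.46 FPKM, lower in both low-Dyrk2 libraries (log2 ratios -0.40 and -0.38). Tmem17, of the transition zone, had 2.91, 1.75, 2.75 and 2.32 FPKM, with log2 ratios of -0.51 and -0.18.

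Of 11 genes for cilium disassembly 9 were kept, and 4 were at least 1.3-fold lower in the knockout (8.08% of all genes), 3 of them at least 2-fold (1.21% of all genes). Plk1, a mitotic kinase that also promotes disassembly, had 12.22 FPKM in wild-type cells, 3.62 in the knockout, 20.39 with siNeg and 17.11 with siDyrk2. Aurka, the kinase that activates the ciliary tubulin deacetylase, had 7.18, 2.82, 10.6 and 9.51 FPKM, and Ube2c, which serves the mitotic ubiquitin ligase, 9.48, 3.59, 14.75 and 12.65 FPKM. Of the 9 kept genes 8 were lower in the knockout (55.6% of all genes were) and Nedd9 was higher. The median log2 ratio of these 9 was -0.113. Plk1, Aurka and Ube2c are also expressed in G2 and M phase. The 19 kept G2 and M genes had a median log2 ratio of -1.119 in the knockout, and their part in these ratios was not tested. No disassembly gene was 1.3-fold different between siDyrk2 and siNeg.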

How the data were processed

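RNA of 4 cultures, 1 per group, was sequenced from stranded, polyA-selected libraries, per the labels' protocols. Tools listed in the submitters' processing notes are HISAT2 2.0.1 and cutadapt 1.9.1, with GRCm38 as the genome. Which program counted fragments, and over which annotation, is not given in the sources used here. Per the file headers, the deposited expression values are FPKM, and a further column holds the exonic length that the authors used, in bases. In each file FPKM times length summed to the same total, so the authors' FPKM were scaled to fragments assigned to genes. Of 55573 identifiers, 55394 matched GENCODE M21.

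No test was made. Ratios are log2((FPKM + 1)/(FPKM + 1)), a pseudocount of 1, among the 12817 genes that reached 1 FPKM in any library; values given as fold with an interval are plain FPKM ratios. Depth (19.98 to 23.93 M fragments, M being 1000000) is the value at which genes of at most 200 bases came out as whole fragments, for 99.17% to 100% of them, taken as whole within 0.0051 FPKM (rounding, at most 0.0244 fragments); fragments per gene followed from FPKM, length and depth. Intervals are 95% exact (Clopper-Pearson) on the split of fragments between libraries and cover counting error only. A count of 0 allows up to 0.06269 to 0.07508 FPKM (3 fragments) for a gene of 2 kb.

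Genes are named for the 6 largest ratios of each comparison, the highest and lowest level of each role, genes under the filter, and up to 3 genes of each further list; others named in the text were chosen after their values were seen. The members and lists were chosen with earlier results of these data known. Alternatives were other pseudocounts, filters, scalings and control libraries. The 8 X-box spellings were GTTGCC, GTTGCCNNNGNAAC, GTTNCCNNGGNAAC, GTTNCCNNNGNAAC, GTTNCCNNNNNAAC, GTNNCCNNNGNAAC, GTNNCNNNNGNAAC and GTTGCCATGG, read on both strands; several contain others. Calculations used Python 3.11.15, pandas 2.3.3, numpy 2.4.6 and SciPy 1.17.1, and the depth and ratio code was tested on simulated data. Intervals in that test came from separate code for the exact binomial interval. The code behind the printed intervals was not itself tested.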

Additional observations from a re-analysis of the deposited data

How the results depend on the processing

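No paired analysis was possible because each group has 1 library. The count of genes at least 2-fold different stayed at 0 in each comparison, under every alternative run. The count at least 1.3-fold different in the same direction in both low-Dyrk2 comparisons stayed at 0 under the other pseudocounts, filters and scalings and was 1 (Bbs9) with no pseudocount. The number at least 1.3-fold different in the knockout went from 0 to 2 with a pseudocount of 0.1 FPKM (Arl6 and Cep290, both lower). Between siDyrk2 and siNeg it went from 5 to 10 with a pseudocount of 0.1, to 1 with a pseudocount of 5 (B9d1) and to 3 with a filter of 5 FPKM, which leaves 25 genes. Between siNeg and wild type it went from 4 to 6 with a pseudocount of 0.1 (B9d1 and Ift140 besides, all lower). It went to 0 with a pseudocount of 5 and to 1 (Kif3a) with the filter of 5 FPKM. The median log2 ratio with that filter was 0.027 in the knockout and -0.034 for siNeg against wild type, and the latter was -0.044 with a pseudocount of 5.

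The remaining alternatives were added after seeing the data. With no pseudocount the number at least 1.3-fold different was 4 in the knockout, 11 between siDyrk2 and siNeg and 8 between siNeg and wild type. The knockout set against siNeg had 6 genes at least 1.3-fold different, all higher (Bbs2, Bbs9, Ift46, Kif3a, Mks1 and Ttbk2), and a median of 0.064. With siNeg left out, siDyrk2 against wild type had 3, all lower (Ift172, Tmem216 and Ttbk2), and a median of -0.066. With 1 library per group, differences between cultures of 1 kind and those between groups cannot be told apart, and the counting interval is the only error given.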
